A study of Homo sapiens with 9 samples.

Results

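The 3 RNA-seq libraries numbered 1 of an NFATC2 knockdown experiment in THP-1 cells were compared with the 6 libraries numbered 2 and 3, over every gene. The members were chosen by the number in the sample title and not by any measured value: 3 of the 9 libraries carry number 1, 1 from each construct. THP-1 cells are a human monocytic leukaemia line, long in culture, that carries the MLL-AF9 (KMT2A-MLLT3) fusion. All 9 libraries came from cells that were spinoculated with lentivirus made in 293T cells, were put under puromycin from 24 hours and were harvested at 48 hours. The control libraries carried a non-targeting shRNA, and the others carried shRNA-143 or shRNA-146, each directed against NFATC2, a calcium-regulated transcription factor. Each construct has 3 libraries, numbered 1 to 3. Polyadenylated RNA was sequenced and reads were counted per gene.

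The series calls the replicates biological. Separate cultures are not stated for them, nor is what a shared number stands for. The p-values therefore measure only the spread between these libraries. Culture, transduction, RNA extraction, library preparation and sequencing run cannot be told apart as sources of a difference that follows the number.

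Counting reads per gene measures messenger RNA through its fragments, so a long messenger RNA gives more reads per molecule than a short one. Genes of the translation, respiration and protein turnover machinery mostly encode short proteins from abundant messenger RNAs. Chromatin regulators, motor proteins and other scaffold proteins mostly have long coding sequences. In bulk RNA, fewer cells that express a gene and less of its RNA per cell cannot be told apart.

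Library totals ran from 40047459 to 44669709 counts. Of the 21 markers of the line, such as ELANE, MPO, SPI1 and HOXA9, 19 reached 1 CPM in at least 1 library, CD68 stayed under that level and CD34 was at 0. Their summed level was 4647 to 5736 CPM in the number 1 libraries and 5528 to 6688 CPM in the others. Lists of markers of other cell types summed to 239 to 312 CPM for 293T and epithelial cells in the number 1 libraries against 255 to 342 CPM, and to 2.72 to 3.44 against 2.24 to 3.65 CPM for T and NK cells. In the same order, the B cell list summed to 25.9 to 42.3 against 25.2 to 46.2 CPM. The erythroid and megakaryocyte list summed to 11.3 to 19.1 against 13.8 to 17.2 CPM. The fibroblast and endothelial list summed to 100.8 to 159.8 against 142.0 to 226.3 CPM. Single members of the lists, such as CD3D, CD3E, MS4A1, IGHM, PPBP and SOX2, were at 0 in every library, but no list was silent as a whole. CPM, counts relative to the library total after TMM scaling, is used throughout.

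The number 1 libraries differed from the rest far more than the other 2 numbers differed from each other. A log2 difference below is number 1 minus numbers 2 and 3 with the construct held in the model, and a gene was called when its edgeR quasi-likelihood p, adjusted by Benjamini-Hochberg over all tested genes, was under 0.05. Of 14975 genes tested, 7449 were called (49.7%), with 3536 higher (23.6%) and 3913 lower (26.1%) in number 1. In the same kind of comparison between number 3 and number 2, 1 gene was called (0.00668%), with 838 at an unadjusted p under 0.05. The median absolute log2 difference was 0.48 for number 1 and 0.16 for number 3 against number 2. The root mean square log2 distance between 2 libraries was 0.661 to 1.23 for pairs of number 1 with number 2 or 3, and 0.401 to 0.721 for pairs of number 2 with number 3. Between libraries of the same number it was 0.570 to 0.765 in number 1, 0.420 to 0.491 in number 2 and 0.477 to 0.730 in number 3. The distances within number 1 thus overlapped those from number 1 to the others.

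The falls were larger than the rises. Among the 8553 genes with a mean of at least 8 CPM, 1033 were called more than 2-fold lower and 221 more than 4-fold lower, while 49 were called more than 2-fold higher and 0 more than 4-fold higher. In 3883 tested genes (25.9%) number 1 lay above both other numbers in every construct, and in 4260 (28.4%) it lay below both. All 3 number 1 libraries lay above all 6 others in 2148 genes (14.3%) and below them in 3035 (20.3%). Scaling by library size alone, without TMM, moved the median of all genes to -0.23 and the calls to 1778 higher and 5020 lower.

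One library did not sit with its number. On the first principal component, which held 58.1% of the variance, the number 1 libraries lay between -85.7 and -53.6 and 5 of the others between 25.7 and 53.8. Control replicate 3 lay between them at -2.47. Without it, 7805 genes were called, and the number 1 libraries also had the fewest genes with a count, 18485 to 19828 against 19888 to 21723.

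NFATC2 (chromosome 20, 51386957 to 51562831 of hg38, minus strand) was at 12.7 CPM in the control, 1.49 in the shRNA-143 and 2.59 in the shRNA-146 library of number 1. It was at 27.6, 7.40 and 6.71 CPM in number 2 and at 27.4, 6.95 and 9.43 CPM in number 3, in the same order. NFATC2 was thus lower in number 1 within each construct, the control included, by 1.61 on the log2 scale (SE 0.21, edgeR adjusted p = 4.58e-05). The knockdown was present in every number: shRNA-143 left 11.7%, 26.8% and 25.4% of the control level in numbers 1, 2 and 3, and shRNA-146 left 20.5%, 24.3% and 34.4%. The difference in knockdown between number 1 and the others did not pass the test for shRNA-143 (log2 interaction -1.15, SE 0.36, edgeR adjusted p = 0.701) or for shRNA-146 (-0.52, SE 0.34, edgeR adjusted p = 0.399), with 3 residual degrees of freedom.

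The 15 protein-coding genes with the largest falls had log2 differences of -4.25 to -3.08. C3, the central complement component, was at 3.66, 2.69 and 3.91 CPM in number 1, at 84.6, 114 and 93.9 CPM in number 2 and at 8.52, 35.3 and 66.8 CPM in number 3, for control, shRNA-143 and shRNA-146 in turn. All 6 other libraries lay above number 1, control replicate 3 least of all. Its log2 difference was -4.25 (SE 0.93, edgeR adjusted p = 0.00964). Without shRNA-146 replicate 1 the call was lost (adjusted p = 0.0715). SMARCA4, the ATPase of the SWI/SNF chromatin remodelling complex, was at 16.7, 18.7 and 9.11 CPM in number 1 against 79.4 to 203 CPM in the 6 others, a fall of 3.37 (SE 0.32). KMT2D, a histone H3 lysine 4 methyltransferase, was at 8.19, 13.8 and 4.90 CPM against 31.9 to 121 CPM.

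In each of these 15 genes all 3 number 1 libraries lay below all 6 others, against 20.3% of all tested genes. The 15 were chosen for large falls with number 1 below both other numbers in every construct, so the choice largely sets this order. The group also held KDM6B, a histone demethylase, TCOF1, which acts in ribosomal RNA transcription, TNRC18, ZNF629 and AEBP1. It further held NUMA1, which organises the mitotic spindle, the myosins MYO18A and MYO9B, RRBP1 of the endoplasmic reticulum, the ubiquitin ligase TRIM56 and the endocytic receptor MRC2. The highest edgeR adjusted p among them was that of C3. Their coding sequences were 2265 to 16611 bases long, with a median of 5043, and had a GC content of 56.4% to 68.4%.

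The 15 largest rises were smaller, from 1.10 to 1.43, and came from genes with shorter coding sequences. TUBA1A, an alpha tubulin, was at 263, 216 and 377 CPM in number 1 against 69.9 to 153 CPM in the 6 others (log2 difference 1.43, SE 0.15, edgeR adjusted p = 1.37e-05). It overlaps TUBA1C, a close copy, so the split of reads between them is uncertain. LY86, which partners CD180 on myeloid cells, was at 62.7, 68.6 and 84.7 CPM against 23.0 to 37.6 CPM. MSMO1, a sterol synthesis enzyme, was at 73.7, 86.0 and 93.2 CPM against 26.1 to 43.9 CPM. The number 1 libraries of these 3 genes were all above the others.

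The rises also held INSIG1, which retains sterol regulatory proteins in the endoplasmic reticulum, SEC61G of the protein translocon, the tetraspanins CD9 and TSPAN13, the adaptor subunit AP1S2, and the cyclin CCNG2. They further held the fatty acid enzyme HACD4, COMMD6, CPNE3, TMEM176B, BMT2 and UBE2F. These 15 were chosen by the same rule, which largely sets the order of their libraries. In 14 of the 15 the number 1 libraries lay above all 6 others, against 14.3% of all tested genes. UBE2F was the exception: its shRNA-143 library of number 1, at 5.59 CPM, lay above the other shRNA-143 libraries, at 2.86 and 2.45 CPM, but below those of the other constructs. The coding sequences of the 15 were 204 to 1611 bases long, with a median of 753, and had a median GC content of 44.3%.

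**Figure D1:**
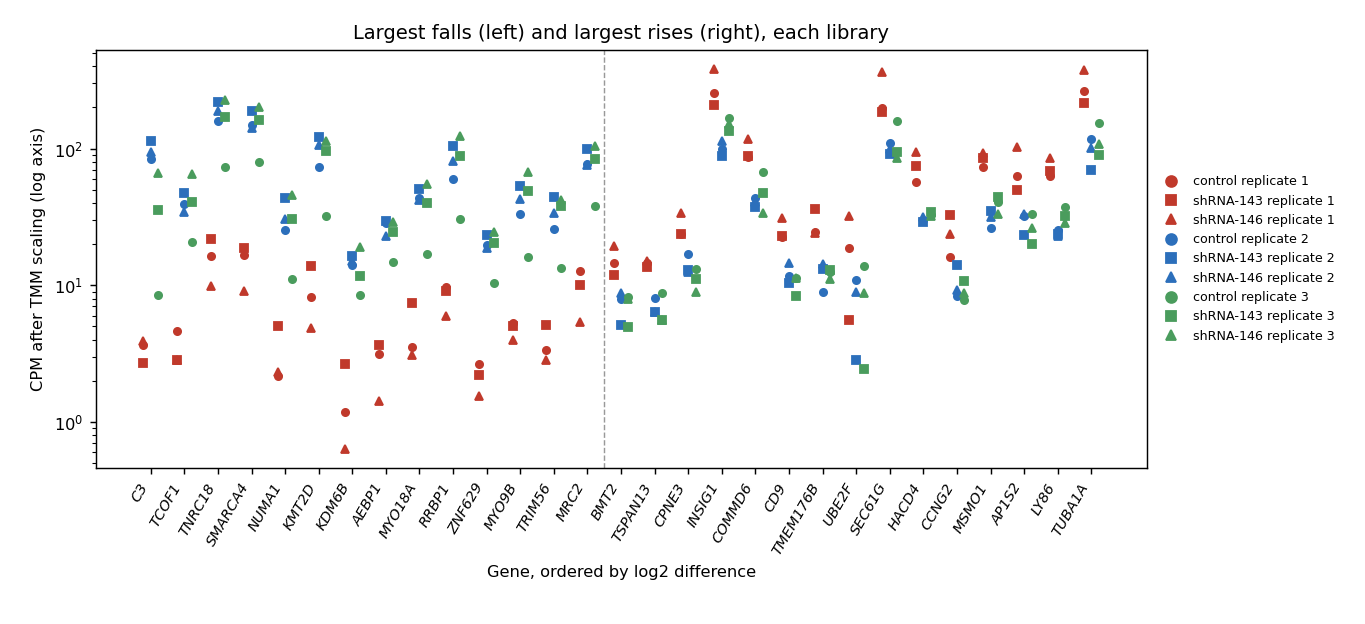
CPM after TMM scaling on a log axis for 14 of the 15 protein-coding genes with the largest falls and the 15 with the largest rises in number 1. Each point is 1 of 9 libraries, coloured by number and shaped by construct. Number 1 lies below all other libraries in the 14 falls shown, and control replicate 3 is the lowest of the rest in each of them.

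Coding length and GC content separated the rises from the falls across the whole transcriptome. Lengths and base contents are those of the longest complete coding sequence of each gene in GENCODE 29, which need not be the transcript these cells make. Among 8363 protein-coding genes with a mean of at least 8 CPM, the Spearman correlation of the log2 difference with coding length was -0.62 and with coding GC content -0.38. It was -0.05 with the length of the 3′ untranslated region and -0.03 with that of the 5′ untranslated region. These are correlations across genes of the same libraries, which are not independent replicates. For number 3 against number 2 they were -0.39 with coding length and 0.20 with GC content, the latter of opposite sign. With the length of the 3′ and 5′ untranslated regions they were -0.31 and -0.07.

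Genes with a coding sequence of at most 500 bases had a median log2 difference of 0.57, and 491 of 692 were called higher and 14 lower. The median was 0.39 at 500 to 1000 bases, 0.11 at 1000 to 2000 and -0.45 at 2000 to 4000. Above 4000 bases it was -1.15, with 5 of 562 genes called higher and 460 lower. GC content of at most 45% went with a median of 0.33 and GC content over 60% with -0.42. Both trends held together: in a grid of 5 length classes by 5 GC classes, the median fell at each of the 20 steps to a longer class and each of the 20 steps to a higher GC class. It ran from 0.68 for short coding sequences of low GC content to -2.23 for those over 4000 bases and over 60% GC.

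**Figure D2:**
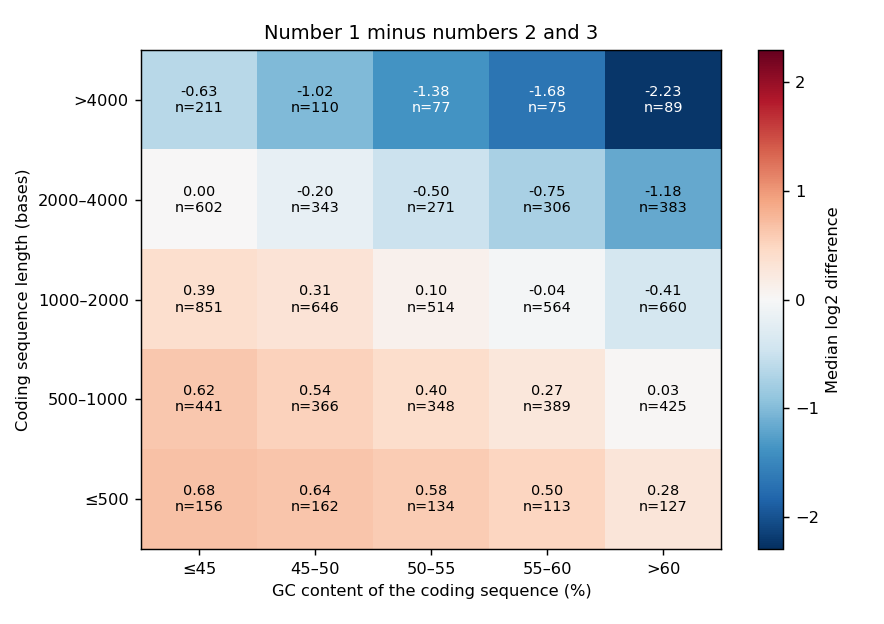
Median log2 difference, number 1 minus numbers 2 and 3, for protein-coding genes grouped by coding length (vertical axis, bases) and coding GC content (horizontal axis, %), with the number of genes in each cell. The value falls from 0.68 at the lower left to -2.23 at the upper right.

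The 2 trends were not shared alike by the number 1 libraries. For coding sequences over 4000 bases, the median deviation of a library from each gene's mean over 9 libraries was -0.74 in control, -0.90 in shRNA-143 and -0.62 in shRNA-146 replicate 1. It was -0.09 in control replicate 3 and 0.27 to 0.58 in the other 5 libraries. So the length trend stood in all 3 libraries of number 1, with control replicate 3 between the groups. For GC content over 60% the deviation was -0.65 in shRNA-146 replicate 1 but -0.15 and -0.12 in the control and shRNA-143 libraries of number 1, against 0.11 to 0.28 in the 6 others. At a GC content of at most 45%, shRNA-146 replicate 1 stood at 0.43 and the other 8 libraries between -0.21 and 0.12.

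**Figure D3:**
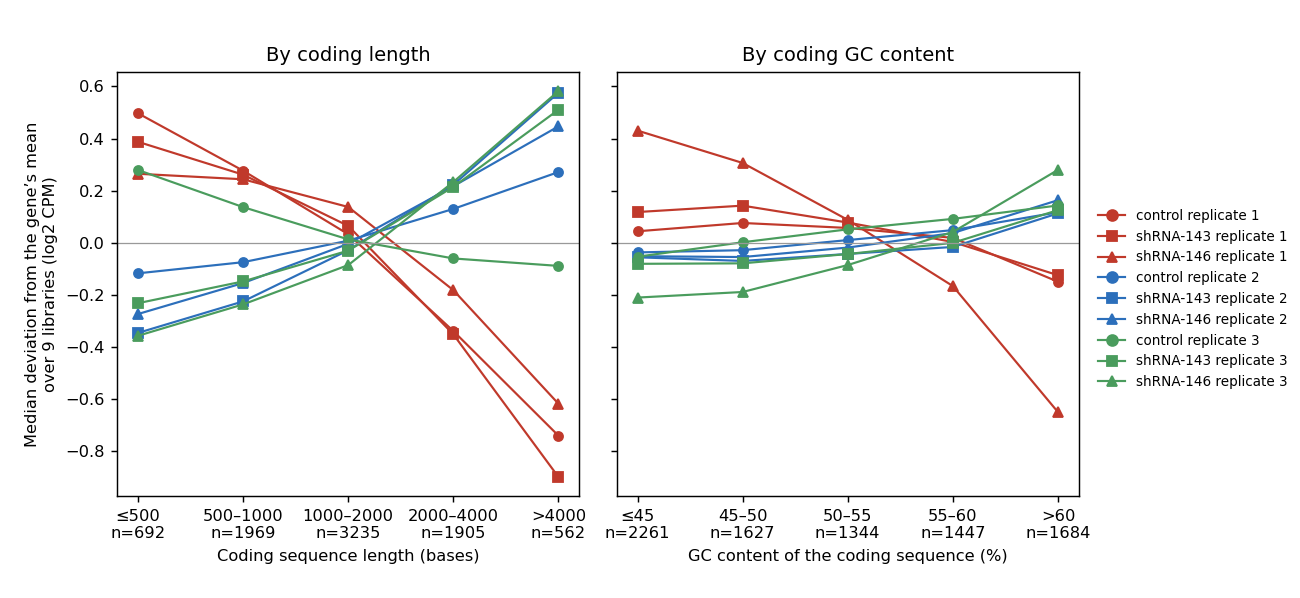
Median deviation of each library from the gene's mean over 9 libraries (log2 CPM) by coding length (left) and coding GC content (right), with the number of genes under each class. The 3 number 1 lines fall with length, control replicate 3 falls from 0.28 to -0.09, and the line of shRNA-146 replicate 1 falls most steeply with GC content, to -0.65.

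A fit that removes from each library a smooth surface over coding length and GC content was added after these trends were seen. The surface held 60.2% of the variance of the log2 difference over those 8363 genes. In the fit, 5459 of 12572 coding genes were called (43.4%), with 3080 higher (24.5%) and 2379 lower (18.9%), against 6707 of the same genes without it. The median absolute log2 difference went from 0.47 to 0.31. Of the genes called in both, 3511 had the same sign and 266 the opposite. All 15 named falls stayed called and lower, from -2.84 to -0.79, and all 15 named rises stayed called and higher, from 0.47 to 1.40. NFATC2 fell by 0.56 in this fit (edgeR adjusted p = 0.0283). Values with the surface are given below for gene groups of coding genes, to be read against 24.5% higher and 18.9% lower over all coding genes in that fit.

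As examples of base composition, the most GC-rich 100 bases of the coding sequence are given for SMARCA4 and KDM6B, which fell, and MSMO1, which rose. They were picked from the named genes with their values known. Their coding sequences also differ in length, at 5043, 5046 and 879 bases. With the surface removed their log2 differences were -1.77, -1.53 and 0.79. Sequences are from GENCODE 29 on GRCh38 (hg38), with G and C in capitals. That of SMARCA4 (chr19:10987729-10987828, plus strand) is 84% G or C. That of KDM6B (chr17:7853385-7853484, plus strand) is 83%, and that of MSMO1 (chr4:165341796-165341895, plus strand) is 42%. Each lies within 1 coding exon.
SMARCA4: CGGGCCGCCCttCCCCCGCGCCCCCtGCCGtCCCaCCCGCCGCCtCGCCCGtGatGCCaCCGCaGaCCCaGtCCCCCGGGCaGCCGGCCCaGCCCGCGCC
KDM6B: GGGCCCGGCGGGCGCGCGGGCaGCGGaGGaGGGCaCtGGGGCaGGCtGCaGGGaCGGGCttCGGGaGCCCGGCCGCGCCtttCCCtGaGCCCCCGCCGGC
MSMO1: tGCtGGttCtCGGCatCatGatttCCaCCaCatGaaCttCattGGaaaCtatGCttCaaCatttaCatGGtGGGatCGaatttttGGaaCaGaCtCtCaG

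The purine share of the coding sequence (A plus G) also went with the difference among genes of like length and GC content. It was examined after other results of these data had been seen. Over all 8363 coding genes its Spearman correlation with the log2 difference was 0.02, and -0.28 once the surface was removed. Within the 25 cells of the grid it was negative in 21 and ran from -0.69 to 0.04. It was lowest in coding sequences of 2000 to 4000 bases with at most 45% GC. There, 55 genes with more than 58% A or G had a median log2 difference of -1.03, with 50 called lower and 0 higher, while 31 genes with at most 50% had a median of 0.39, with 17 called higher and 1 lower. With the surface removed these medians were -0.90 and 0.54. In the same genes number 3 minus number 2 went the other way, with medians of 0.09 and -0.15.

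The purine-rich genes of that cell were low in each number 1 library, with median deviations of -0.54 in control, -1.14 in shRNA-143 and -0.42 in shRNA-146, against 0.11 to 0.55 in the 6 others. The purine-poor genes stood at 0.03, 0.24 and 0.55 in number 1 against -0.26 to -0.03 in the others. Among coding sequences of 1000 to 2000 bases with at most 45% GC, the medians were -0.05 above 58% purine and 0.58 at or below 50%.

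**Figure D4:**
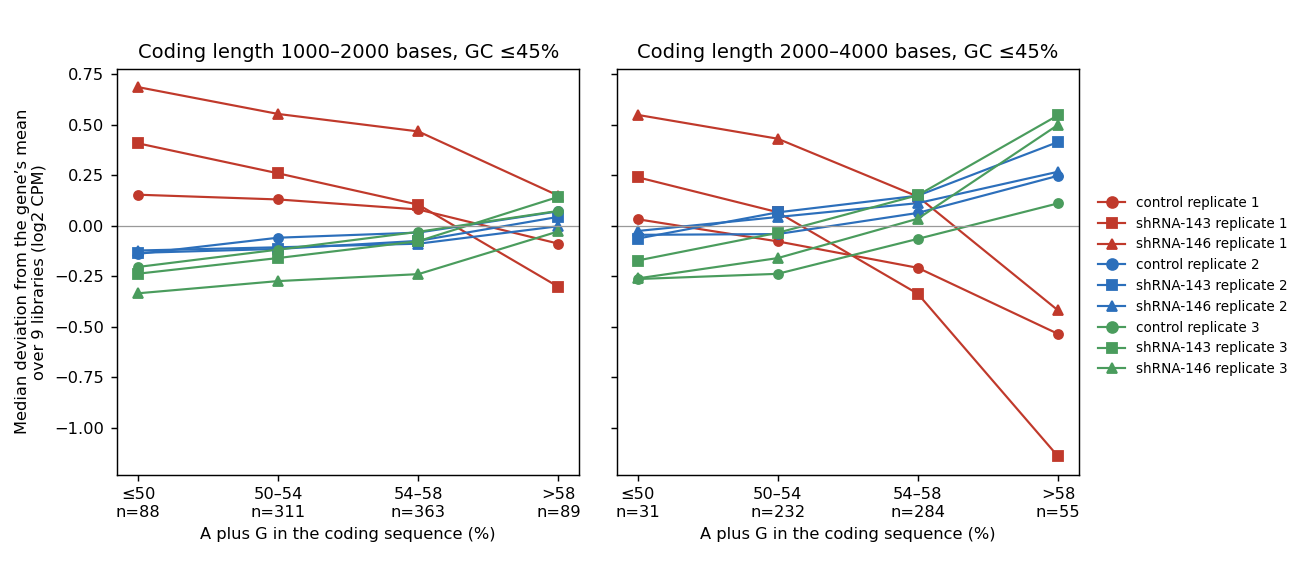
Median deviation of each library from the gene's mean over 9 libraries (log2 CPM) by the share of A plus G in the coding sequence, for coding sequences of 1000 to 2000 bases (left) and 2000 to 4000 bases (right) with at most 45% GC. The number 1 lines fall to the right, most in shRNA-143 replicate 1, to -1.14, while the others rise.

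The 3 largest called falls over 58% purine and the 2 largest called rises at or below 50% in the class of 2000 to 4000 bases show what such coding sequences look like, again chosen after the values were seen. NEMF, a ribosome quality control factor, was at 1.64, 1.87 and 2.44 CPM in number 1 against 5.01 to 16.5 CPM (log2 difference -2.54). SMC4, a core subunit of condensin, was at 19.1, 14.6 and 20.5 CPM against 44.5 to 105 CPM (-2.18). SLTM, a nuclear RNA-binding protein, was at 9.83, 7.79 and 7.13 CPM against 21.8 to 46.4 CPM (-2.08). Number 1 lay below every other library in all 3 genes, as in 20.3% of all tested genes. Of the rises, RXFP1, the relaxin receptor, was at 18.2, 24.1 and 42.1 CPM against 12.6 to 19.2 CPM (0.77), with the groups overlapping. CMTR2, an RNA cap methyltransferase, was at 19.7, 23.1 and 16.2 CPM against 8.40 to 15.5 CPM (0.74), with no overlap.

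The most purine-rich 100 bases of each coding sequence follow, with A and G in capitals. They are 80% purine in NEMF (chr14:49789239-49789338, minus strand), 81% in SMC4 (chr3:160416326-160417732, plus strand, over 2 exons) and 81% in SLTM (chr15:58893872-58893971, minus strand). They are 62% in RXFP1 (chr4:158626891-158633431, plus strand, over 3 exons) and 67% in CMTR2 (chr16:71284535-71284634, minus strand).
NEMF: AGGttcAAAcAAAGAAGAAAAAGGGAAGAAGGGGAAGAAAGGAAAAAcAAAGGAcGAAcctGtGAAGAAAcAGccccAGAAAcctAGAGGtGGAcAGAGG
SMC4: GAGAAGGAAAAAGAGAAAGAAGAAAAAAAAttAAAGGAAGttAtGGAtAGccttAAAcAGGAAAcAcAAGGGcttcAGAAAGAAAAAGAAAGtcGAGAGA
SLTM: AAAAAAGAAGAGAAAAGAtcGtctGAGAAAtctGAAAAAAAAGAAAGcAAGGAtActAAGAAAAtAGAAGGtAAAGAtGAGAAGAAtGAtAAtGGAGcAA
RXFP1: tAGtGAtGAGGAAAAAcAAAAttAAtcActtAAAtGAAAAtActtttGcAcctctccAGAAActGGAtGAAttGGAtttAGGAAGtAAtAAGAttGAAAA
CMTR2: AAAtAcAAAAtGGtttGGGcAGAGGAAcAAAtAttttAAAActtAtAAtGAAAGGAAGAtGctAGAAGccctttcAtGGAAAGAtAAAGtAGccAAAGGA

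Genes for the machinery of translation, respiration and protein turnover were higher in number 1. Of 84 cytosolic ribosomal protein genes, 69 were called higher and 1 lower, with a median log2 difference of 0.62 against 0.00 over all tested genes, of which 23.6% rose and 26.1% fell. RPS29 was at 746, 604 and 671 CPM in number 1 against 259 to 490 CPM in the others (1.01, SE 0.14, edgeR adjusted p = 6.22e-05). RPL7L1, a ribosomal protein paralog, was the 1 that fell, by 0.98. Of 78 mitochondrial ribosomal protein genes, 54 rose and 1 fell (median 0.44), and of 79 nuclear oxidative phosphorylation genes tested, 56 rose and 2 fell (median 0.54). COX7A2, a cytochrome oxidase subunit, was at 639, 676 and 833 CPM against 314 to 431 CPM, with no overlap. Of 37 proteasome subunit genes tested, 25 rose and 1 fell (median 0.49). Reads of ribosomal protein genes can be shared with their processed pseudogenes.

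The median coding lengths of these groups were 457.5, 591, 450 and 831 bases, in the order given, against 1410 for all tested genes. With the length and GC surface their medians were 0.20, 0.09, 0.12 and 0.15, against 0.06 over all coding genes in that fit. The counts became 36 higher and 4 lower for cytosolic ribosomal proteins, 8 and 5 of 78 for mitochondrial ribosomal proteins, a smaller share higher than the 24.5% of all coding genes, 24 and 2 for oxidative phosphorylation and 12 and 2 for the proteasome.

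Replication-dependent histone genes, whose main messenger RNAs end without a poly(A) tail, were higher as well. Of 43 tested out of 71, 24 rose and 0 fell, with a median of 0.91. HIST1H4I was at 3.66, 5.72 and 9.80 CPM in number 1 against 1.84 to 3.46 CPM (1.28, SE 0.26, edgeR adjusted p = 0.00115). HIST1H1C was at 4.82, 5.41 and 7.06 CPM against 2.05 to 4.62 CPM. Their coding sequences are short but GC-rich (medians 387 bases and 60.3%), and with the surface 12 were called higher and 0 lower, with a median of 0.64. Many of these genes are near-identical copies, so their counts are uncertain.

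Chromatin modifiers and remodelers had the lowest median of the 50 lists. Of 66 tested, 56 fell (84.8%) and 1 rose (1.52%), with a median of -1.45, against 26.1% and 23.6% of all tested genes. SETD1A, a histone H3 lysine 4 methyltransferase, fell by 2.80 (SE 0.30, edgeR adjusted p = 3.2e-05), beside SMARCA4, KMT2D and KDM6B above. Their median coding length was 5044.5 bases, and with the surface 31 fell and 7 rose, with a median of -0.25. Of 33 KMT2A fusion targets and partners tested, 16 fell (48.5%) and 1 rose (3.03%), with a median of -0.33. DOT1L, the histone H3 lysine 79 methyltransferase recruited by the fusion, was at 19.0, 22.3 and 11.8 CPM against 69.7 to 157 CPM, a fall of 2.74 (1.08 with the surface). KMT2A itself fell by 2.23 (0.62 with the surface). MLLT3, the fusion partner, was at 3.02, 1.54 and 3.17 CPM against 4.86 to 7.63 CPM (-1.27, and -1.41 with the surface). With the surface, 10 of this group fell and 3 rose, with a median of -0.05. In that fit 18.9% of all coding genes fell and 24.5% rose.

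Zinc finger genes named ZNF, mostly transcriptional repressors, fell in 160 and rose in 25 of 429 tested, with a median of -0.30. Their coding sequences are not GC-rich (median 44.1%) and have a median length of 1728 bases. With the surface the group stayed at 154 lower and 27 higher, with a median of -0.25, against 18.9% and 24.5% of all coding genes in that fit.

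Genes of the cell cycle moved in both directions. Of 50 DNA replication and G1/S genes, 19 fell (38.0%) and 14 rose (28.0%), and of 49 mitosis and G2/M genes, 21 fell (42.9%) and 12 rose (24.5%), against 26.1% and 23.6% of all tested genes. MKI67, a proliferation marker that coats mitotic chromosomes, was at 22.6, 14.2 and 20.7 CPM against 63.1 to 154 CPM. CLSPN, which acts in the replication checkpoint, was at 4.61, 3.56 and 4.85 CPM against 11.9 to 32.5 CPM. With the surface the replication genes stood at 12 lower and 13 higher and the mitosis genes at 16 and 11. Of 55 nucleolar and MYC target genes, 22 fell and 6 rose, and with the surface 21 fell and 15 rose, with a median of -0.07. NCL, the main nucleolar RNA-binding protein, was at 344, 220 and 228 CPM against 676 to 1032 CPM, and fell by 1.73 (1.64 with the surface). Its coding sequence is 64.6% purine. MYC itself fell by 0.54 (edgeR adjusted p = 0.00132).

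Translation initiation and elongation factors rose in 25 and fell in 14 of 60, or rose in 15 and fell in 17 when scaled by library size alone. With the surface 15 rose and 12 fell. EIF3A, the largest subunit of initiation factor eIF3, was at 85.7, 83.4 and 59.5 CPM against 218 to 430 CPM, and EIF4G1, the cap-complex scaffold, at 132, 131 and 82.8 CPM against 350 to 713 CPM. EIF3A fell by 2.20 (1.48 with the surface) and EIF4G1 by 2.29 (0.98 with the surface). Genes of the spliceosome and hnRNP genes rose in 30 (37.0%) and fell in 25 (30.9%) of 81. They rose in 17 and fell in 31 by library size alone, and in 12 and 26 with the surface. Over all tested genes 23.6% rose and 26.1% fell, and in the surface fit 24.5% and 18.9% of coding genes. By library size alone 1778 of all 14975 tested genes rose and 5020 fell, so the turn toward falls there was shared by all genes.

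Genes of cholesterol synthesis and uptake stayed higher with the surface. Of 26 tested, 15 rose and 5 fell, with a median of 0.50, and with the surface 17 rose and 0 fell, with a median of 0.40. INSIG1, the feedback regulator named above, was at 257, 209 and 383 CPM against 88.0 to 168 CPM, with no overlap (1.14, SE 0.19, edgeR adjusted p = 0.000485, and 1.03 with the surface). SC5D, which acts late in the pathway, rose by 1.03 and by 0.54 with the surface. SREBF1, which encodes a sterol regulatory transcription factor and has a coding GC content of 65.4%, was at 53.97, 42.5 and 29.2 CPM against 70.7 to 129 CPM, and its difference of -1.13 became 0.35 with the surface, short of the threshold (edgeR adjusted p = 0.153). FASN, the fatty acid synthase with a coding sequence of 7533 bases, went from -2.09 to 0.12 (edgeR adjusted p = 0.281).

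Markers of monocytes and macrophages moved in both directions. Of 35 tested, 13 rose (37.1%) and 6 fell (17.1%), with a median of 0.30, against 23.6% and 26.1% of all tested genes. With the surface 18 rose and 3 fell, with a median of 0.31, against 24.5% and 18.9% of all coding genes in that fit. LYZ, lysozyme, was at 388, 406 and 359 CPM against 193 to 313 CPM, a rise of 0.68 that was 0.13 with the surface (edgeR adjusted p = 0.520). CD9, named above among the rises, rose by 1.18 and by 0.81 with the surface. SIRPA, an inhibitory receptor, was at 57.5, 62.5 and 59.3 CPM against 115 to 178 CPM, and CD4 at 40.2, 39.5 and 36.9 CPM against 52.5 to 97.7 CPM. CD4 fell by 0.997 and by 0.99 with the surface. SPI1, the PU.1 master regulator of myeloid cells, comes from the list of myeloid and stem cell transcription factors. It was at 145.8, 165 and 89.3 CPM against 247 to 318 CPM, a fall of 1.03 that was 0.98 with the surface.

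A few single genes, chosen after their values were seen, stayed lower with the surface. CD74, the invariant chain of MHC class II, was at 92.3, 52.8 and 54.1 CPM against 138 to 219 CPM (-1.502, SE 0.20, edgeR adjusted p = 8.98e-05, and -1.52 with the surface). TNFSF14, a TNF family ligand, was at 3.34, 1.54 and 3.43 CPM against 7.03 to 10.7 CPM (-1.77, and -1.70). PAX5, a B cell transcription factor, was at 0.754, 1.33 and 1.17 CPM against 2.72 to 8.29 CPM (-2.54, and -2.43). EGR1, an immediate early factor, was at 1.21, 1.33 and 0.939 CPM against 3.21 to 7.15 CPM (-2.26, and -1.71). Number 1 lay below all 6 other libraries in these 4 genes, as in 20.3% of all tested genes.

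Of the 11 MHC class II genes tested, 2 rose and 2 fell, and with the surface 0 rose and 1 fell. HLA-DRB1 rose by 0.34 (edgeR adjusted p = 0.0452) and stood at 0.20 with the surface, short of the threshold (edgeR adjusted p = 0.237). Of 41 lysosome genes, 17 rose (41.5%) and 12 fell (29.3%), or 16 and 9 with the surface. By library size alone 7 rose and 14 fell, where 1778 of all 14975 tested genes rose and 5020 fell. GRN, progranulin, was at 112, 121 and 107 CPM against 209 to 556 CPM. BST2, an interferon-induced membrane protein, was at 296, 343 and 230 CPM against 144 to 161 CPM, a rise of 0.94 (0.61 with the surface), while 9 interferon-stimulated genes rose (16.7%) and 14 fell (25.9%) of 54, against 23.6% and 26.1% of all tested genes, and 10 rose and 14 fell with the surface.

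**Figure D5:**
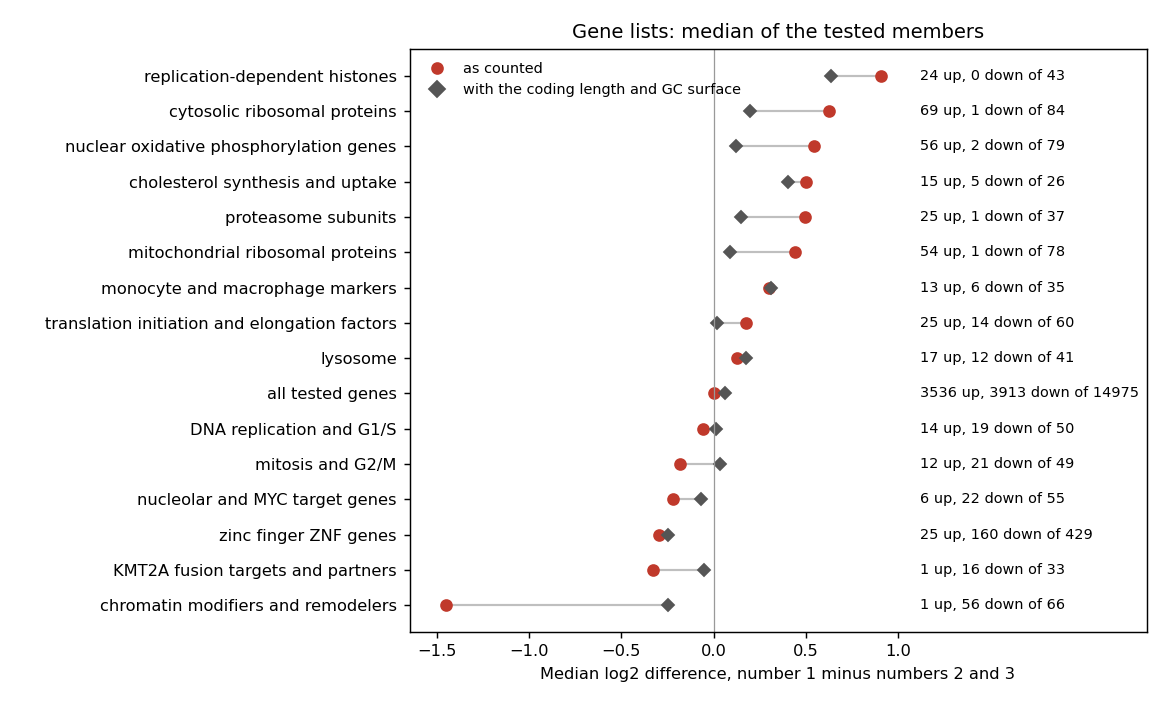
Median log2 difference, number 1 minus numbers 2 and 3, of the tested members of 15 gene lists and of all tested genes, as counted (circles) and with the coding length and GC surface (diamonds). At the right are the counts of members called higher and lower without the surface. Chromatin modifiers move from -1.45 to -0.25, while the cholesterol and ZNF lists move little.

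Transcripts of the mitochondrial genome moved in both directions. Of 13 protein genes, 3 rose (23.1%) and 5 fell (38.5%), with a median of -0.14, against 23.6% and 26.1% of all tested genes. By construct the median was -0.63 in control, -0.05 in shRNA-143 and 0.03 in shRNA-146. With the surface 1 was called higher and 9 lower, with a median of -0.67, against 24.5% and 18.9% of all coding genes. The summed share of counts of the 13 genes was 5.01% ± 0.76 (SD, n = 3) in number 1 and 5.01% ± 0.56 (SD, n = 6) in the others. MT-ND6, the 1 protein gene encoded on the light strand, was at 144, 182 and 191 CPM in number 1 against 509 to 717 CPM (-1.82, SE 0.14, edgeR adjusted p = 4.41e-06). MT-ND5, which ends beside it on the opposite strand, was at 455, 643 and 587 CPM against 1403 to 2178 CPM (-1.72, SE 0.14). Number 1 lay well below the rest in both. MT-CO1 rose by 0.62 (SE 0.19, edgeR adjusted p = 0.0129), with overlapping groups. The strand setting of the counting was not given.

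Among genes that are not protein-coding, processed pseudogenes stood out from unprocessed ones. Of 401 processed pseudogenes tested, 135 rose and 25 fell (median 0.56), and of 83 unprocessed pseudogenes, 9 rose and 22 fell (median -0.51). Processed pseudogenes annotated as transcribed did not share the rise, with 9 higher and 12 lower of 63 (median -0.12). Over all tested genes 23.6% rose and 26.1% fell. The 3 largest non-coding rises, AC034236.1, AC005912.1 and RPL7P1, were at 1.56, 1.39 and 1.36. RPL7P1 is a processed copy of RPL7 and can draw reads from it. The 3 largest falls were AC004847.1 (-1.93), BAIAP2-DT (-1.84) and NEAT1 (-1.78), the long RNA that scaffolds paraspeckles. NEAT1 was at 2.75, 4.51 and 2.46 CPM against 6.37 to 17.2 CPM, and MALAT1, another nuclear RNA, at 5.68, 5.61 and 5.69 CPM against 7.42 to 13.2 CPM. SNHG6, a short host gene of small nucleolar RNAs, went the other way, at 159, 152 and 206 CPM against 63.0 to 118 CPM.

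As shares of all counts, genes with coding sequences over 4000 bases took 1.47% ± 0.14 (SD, n = 3) in number 1 and 3.52% ± 0.77 (SD, n = 6) in the others, without overlap. Cytosolic ribosomal protein genes took 16.1% ± 1.98 against 12.1% ± 1.87, with control replicate 3, at 15.5%, above shRNA-146 replicate 1, at 13.8%. The 100 most counted genes took 34.4% ± 0.72 against 30.0% ± 2.54. Of 9 such shares, 6 gave the smallest two-sided p that an exact permutation of the number within constructs allows, 0.037 over 27 arrangements (adjusted p = 0.0556 over the 9). The number was moved in each construct separately, so these p-values do not allow for libraries of the same number belonging together. The shares of long non-coding RNA genes and of coding sequences under 45% GC did not differ beyond the spread (exact permutation p = 0.519 and 0.333), and that of the mitochondrial genes had p = 1.

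The shRNA effects themselves were then compared between number 1 and the other numbers by an interaction term. For shRNA-143, 0 genes were called in edgeR (0%), with 744 at an unadjusted p under 0.05, and 38 in DESeq2. Among genes with a mean of at least 8 CPM, the 5 with the smallest p were NIN, RFC1, MYO5A, NCOR1 and NIPBL. All have long coding sequences and none was called in edgeR. NIPBL, the cohesin loader, was at 6.44 CPM in shRNA-143 and 12.3 CPM in control of number 1, but at 32.4 and 35.8 CPM against 23.9 and 24.3 CPM in numbers 2 and 3.

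For shRNA-146, 116 genes were called (0.775%), 111 with a lower (0.741%) and 5 with a higher (0.0334%) shRNA effect in number 1, and 591 with the replicate number as a further block. Without shRNA-146 replicate 3, 0 genes were called in edgeR (1923 at an unadjusted p under 0.05), and without control replicate 2 or 3 there were 2040 and 1132. Within number 1, each call rests on 1 library per construct, control replicate 1 and shRNA-146 replicate 1. TAF10, a subunit of TFIID, was at 1.117 CPM in shRNA-146 replicate 1. It was at 28.4 CPM in the control and 30.0 CPM in the shRNA-143 library of number 1, and 12.9 to 21.3 CPM in the 6 others. The interaction was -4.48 (SE 0.48, edgeR adjusted p = 0.00420). For FTH1, the ferritin heavy chain, control replicate 1 was at 474 CPM, above the other controls at 275 and 289 CPM. FTH1 was at 621 CPM in shRNA-143 replicate 1, 233 to 466 CPM in the 6 libraries of numbers 2 and 3, and 142.6 CPM in shRNA-146 replicate 1.

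CTSD, a lysosomal protease, was at 46.8 CPM in that library and 141 to 289 CPM in the other 8, and PABPN1, a nuclear poly(A)-binding protein, at 7.79 CPM against 51.8 to 68.2 CPM. PDXP, a phosphatase, was at 1.57 CPM against 8.57 to 14.48 CPM. The called genes had a median coding GC content of 65.6% and a median coding length of 1185 bases, against 52.6% and 1410 over all tested genes. This is the library with the steepest GC trend above, and the part of that trend in these calls was not tested. TAF10, FTH1, PABPN1, PDXP and CTSD overlap exons of ILK, BEST1, BCL2L2-PABPN1, Z83844.3 and AC068580.4, in that order, so their counts are uncertain.

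Between numbers 3 and 2 the 1 gene called was RGS16, a regulator of G protein signalling. It was at 16.7, 21.2 and 20.6 CPM in number 2, at 6.48, 6.38 and 5.39 CPM in number 3 and at 6.73, 5.10 and 4.54 CPM in number 1. Here number 2 stood apart and number 1 lay with number 3 (log2 difference of number 3 minus number 2 of -1.69, SE 0.19, edgeR adjusted p = 0.0359). No gene was called in this comparison under 5 of the other scalings, filters and tools tried, with 755 to 1009 genes at an unadjusted p under 0.05.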

How the data were processed

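The deposited table holds raw read counts per gene for 9 libraries. Per the submitters' processing notes, the authors used fastp, STAR 2.5, featureCounts and DESeq2 with hg38; settings and strand are not given in the sources used here. The deposited counts were tested in edgeR 4.0.16 (R 4.3.3; TMM, filterByExpr, robust quasi-likelihood) with construct and number 1 as terms, leaving 5 residual degrees of freedom. Number 3 against number 2 left 4 and the interactions left 3. limma 3.58.1 (voom) and DESeq2 1.42.0 were alternatives.

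Named genes were NFATC2, the 15 largest rises and falls among called protein-coding genes with a mean of at least 8 CPM and number 1 beyond both other numbers in every construct, 3 rises and 3 falls of other biotypes, up to 4 called members per list (mean of at least 2 CPM), and 5 genes per interaction. The 5 genes per interaction also had a mean of at least 8 CPM. Other genes named were chosen after their values were seen. A gene that met the rule is not reported here. The comparison and the lists were chosen with earlier results of these data known. The surface was a loess fit (span 0.30) per library on 12572 coding genes of GENCODE 29.

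Deviations from construct means correlated at 0.252 to 0.758 between libraries of the same number in all 9 pairs, and at -0.678 to 0.535 between different numbers. Every same-number pair was over 0.1, and the numbers were taken to pair the libraries. Pairs of number 2 with number 3 were also over 0.1, at 0.101 to 0.535. The rule therefore cannot tell whether libraries of numbers 2 and 3 are paired. Some pairs of different numbers correlated more than those of control replicate 3 with its own. Tested on simulated counts of 14975 genes for number 1 against the others, the fit recovered 66 of 100 genes changed 2-fold and 21 of 100 changed 1.5-fold, and called 2 unchanged genes.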

Additional observations from a re-analysis of the deposited data

Results flagged for a closer look

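The effect of shRNA-146 against control differed between number 1 and the other numbers by an interaction test in 116 genes. In number 1 each construct is 1 library. The term therefore compares the difference of shRNA-146 replicate 1 from control replicate 1 with the same difference in the other numbers. The number of calls depended strongly on which library was left out, as given above. Among genes with a mean of at least 8 CPM, the 5 with the smallest p were PABPN1 (log2 interaction -2.80), CTSD (-2.26), TAF10 (-4.48), FTH1 (-2.32) and PDXP (-3.05). Each was tested by the same term. In each, shRNA-146 replicate 1 is the lowest of the 9 libraries.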

How the results depend on the processing

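The count for number 1 against the others stayed within 1.5 times of 7449 in every alternative run, from 5459 of 12572 coding genes with the surface to 7585 in DESeq2. With 1 library left out it ran from 5746 (without shRNA-143 replicate 1) to 7805 (without control replicate 3). Library size alone gave 26.2% of calls higher against 47.5%, and the gene length and GC trend gave 55.1%. With the replicate block, 7429 genes were called for number 1, 0 for the shRNA-143 interaction and 591 for the shRNA-146 interaction (108 higher, 483 lower), where DESeq2 gave 700 and limma-voom 57. The shRNA-143 interaction gave 38 in DESeq2. Number 3 against number 2 gave 0 with median-of-ratios, library size and upper quartile scaling, a 1 CPM filter and limma-voom, 72 with no filter, 35 in DESeq2 and 11 with the gene length and GC trend. With 1 library left out, it gave 0 to 16 (without shRNA-146 replicate 1), the shRNA-143 interaction 0 to 320 (without control replicate 2) and the shRNA-146 interaction 0 (without shRNA-146 replicate 3) to 2040 (without control replicate 2). In percentage points of all counts, number 1 minus the others ran with 1 library left out from -0.476 (without shRNA-146 replicate 1) to 0.672 for mitochondrial genes, from 0.000446 to 0.0252 for long non-coding RNA genes, from -4.70 to -2.58 (without shRNA-146 replicate 1) for coding GC over 60%, and from -0.275 (without shRNA-146 replicate 1) to 1.86 for coding GC under 45%. The cause of these moves was not tested. Of the values of 37 named genes under alternatives, 805 kept direction and call and 3 lost the call: NFATC2 (adjusted p = 0.110) and UBE2F (adjusted p = 0.0624) without the construct block and C3 without shRNA-146 replicate 1 (adjusted p = 0.0715), all by edgeR. With 3 libraries numbered 1, most changes of 1.5-fold were not recovered in the simulated counts, where 100 genes were changed per fold. Far more genes were called in the data, and those called higher had a median log2 difference of 0.60. The simulated recovery therefore need not hold for the real comparison.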

Other observations

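Targets of p53 and the DNA damage response rose in 11 (39.3%) and fell in 2 (7.14%) of 28 tested, with a median of 0.25. Over all tested genes 23.6% rose and 26.1% fell. With the surface 7 of the 28 rose and 3 fell, against 24.5% and 18.9% of all coding genes in that fit, a share higher near that of all coding genes. NRF2 targets and ferritin genes rose in 9 (34.6%) and fell in 5 (19.2%) of 26, and in 10 and 2 with the surface. Among them NQO1, a quinone reductase, rose by 1.07 and TXN, thioredoxin, by 1.03, while ABCC1, a long transporter gene, fell by 1.49 and stood at -0.19 with the surface.

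NF-kB and inflammatory targets rose in 9 (23.7%) and fell in 11 (28.9%) of 38, near the shares of all tested genes, and in 6 and 4 with the surface. IL1B rose by 1.04, CCL2, a monocyte chemokine, by 1.43 (0.87 with the surface, edgeR adjusted p = 0.0677), and REL, an NF-kB subunit, fell by 1.04. NFAT and calcineurin genes rose in 8 (25.8%) and fell in 12 (38.7%) of 31, and in 7 and 9 with the surface.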
